A study of Mus musculus with 4 samples.

Results

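Aurora kinases and the proteins that place and activate them at the mitotic spindle were followed in haploid and diploid mouse embryonic stem cells (ESCs). The set held 9 genes, chosen by name: Aurka, Tpx2, Bora and Hmmr around Aurora A, Aurkb, Incenp, Birc5 and Cdca8 of the chromosomal passenger complex, and Aurkc, the third Aurora kinase. Probes were assigned through the transcript accession in the scanner files, which gave 15 of the array's 39429 probes. Of the 9 genes, 8 passed the filter on dim probes and entered a fit over 17962 features, and Aurkb did not. Gene expression was measured on 4 one-colour Agilent arrays, 2 with RNA of haploid and 2 with RNA of diploid ESCs. All 4 samples were parthenogenetic, with a genome from the egg alone, and female, and the samples of each group are numbered 1 and 2. The strain, the culture conditions and the share of cells still haploid at harvest are not in the labels.

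Aurora A is a kinase of centrosomes and spindle poles that is needed to build a bipolar spindle. BORA helps to activate it before mitosis, and TPX2, released from importins by Ran-GTP near chromosomes, activates it on spindle microtubules, where HMMR helps to hold TPX2. Aurora B works in the chromosomal passenger complex with INCENP, survivin (the Birc5 product) and borealin (the Cdca8 product), and corrects faulty attachments of chromosomes to the spindle before it acts in cytokinesis. Aurora C is a close relative of Aurora B known from meiosis in germ cells and from early embryos. Transcripts of most of these genes peak in G2 and mitosis in dividing cells. The series' stated theme is the passage from G2 into mitosis in haploid ESCs, a cell type that tends to become diploid in culture.

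RefSeq promoter sequences (GRCm38.p6, 250 bases before the transcript start to 50 after it) were at hand for 5 of the 9 genes, Aurka, Hmmr, Birc5, Cdca8 and Aurkc. They are shown for the 3 whose promoters hold TTTGAA, a form of the cell cycle homology region of G2 and M phase genes, together with CCAAT, the box bound by NF-Y. Capitals mark TTTGAA, its relative TTTAAA and CCAAT on either strand (ATTGG is CCAAT read on the other strand), and each line ends 30 bases from the annotated start. Hmmr lies at chr11:40733408-40733617 (minus strand), Cdca8 at chr4:124936888-124937017 (minus strand) and Aurka at chr2:172370541-172370640 (minus strand).
Hmmr: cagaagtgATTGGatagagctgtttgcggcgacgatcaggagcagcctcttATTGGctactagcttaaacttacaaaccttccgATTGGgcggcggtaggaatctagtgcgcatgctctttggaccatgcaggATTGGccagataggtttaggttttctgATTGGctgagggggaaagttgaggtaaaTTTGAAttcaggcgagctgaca
Cdca8: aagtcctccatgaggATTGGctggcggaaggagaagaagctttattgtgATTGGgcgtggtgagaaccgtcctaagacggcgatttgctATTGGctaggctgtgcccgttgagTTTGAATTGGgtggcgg
Aurka: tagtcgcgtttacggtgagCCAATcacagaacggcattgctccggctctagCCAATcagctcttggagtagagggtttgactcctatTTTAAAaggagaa

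The Hmmr promoter held 5 CCAAT matches and TTTGAA at bases 9 to 14 from the start. The Cdca8 promoter held 4 CCAAT matches and TTTGAA at bases 14 to 19, the last match sharing its first base with TTTGAA. The Aurka promoter held 2 CCAAT matches, TTTAAA at bases 18 to 23 and TTTGAA at bases 33 to 38, just past the stretch shown. The Birc5 promoter held a TTTAAA match far upstream, at bases -220 to -215, and the Aurkc promoter a single CCAAT match after the start. Of the 32851 promoter windows in the table, 17.9% held TTTGAA, 13.2% TTTAAA and 37.4% CCAAT, and 6.95% held TTTGAA and CCAAT together. At least 4 CCAAT matches stood in 1.06% of windows and at least 5 in 0.271%. The E2F motifs TTTCGCGC (0.323% of windows) and TTTGGCGC (0.514%) were in none of the 5 promoters. Both strands were searched, and a match is a run of letters in these windows and says nothing of binding in these cells.

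Levels below are log2 signal relative to the array's own 75th percentile, so 0 is the 75th percentile, and differences are haploid minus diploid on the same scale with a standard error (SE) from limma's fit over all features. Adjusted p-values are limma's, Benjamini-Hochberg adjusted over all 17962 features, with a threshold of 0.05. An exact permutation test of 2 arrays against 2 cannot go below p = 0.333. The signal at the 75th percentile ran from 526 to 553 intensity units on the haploid arrays and from 617 to 907 on the diploid arrays. Probes well above background made up 53.6% and 59.7% of all probes on the haploid arrays and 55.1% and 65.0% on the diploid arrays. No spot was saturated. All 12 pluripotency markers examined, Pou5f1 and Sox2 among them, passed the filter.

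None of the 8 measured members passed the threshold, which 20 features (0.111%) did, a count that ran from 0 to 293 with 1 array left out. Hmmr had the smallest adjusted p (0.265) and was the only 1 of the 8 members with an unadjusted limma p under 0.05. Over all 17962 features, 2104 had an unadjusted p under 0.05. Differences were above 0 for 4 members and below 0 for 4, with a median of -0.02, beside a median of 0.02 over all features and 46.8% of features below 0. The haploid arrays lay below both diploid arrays for 3 members, Hmmr, Tpx2 and Bora, a pattern that 20.9% of all features showed. They lay above both for 1 member, Incenp, as 26% of features did. In RNA from whole cultures, fewer cells in G2 and mitosis and less RNA of a gene in each such cell cannot be told apart.

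**Figure D1:**
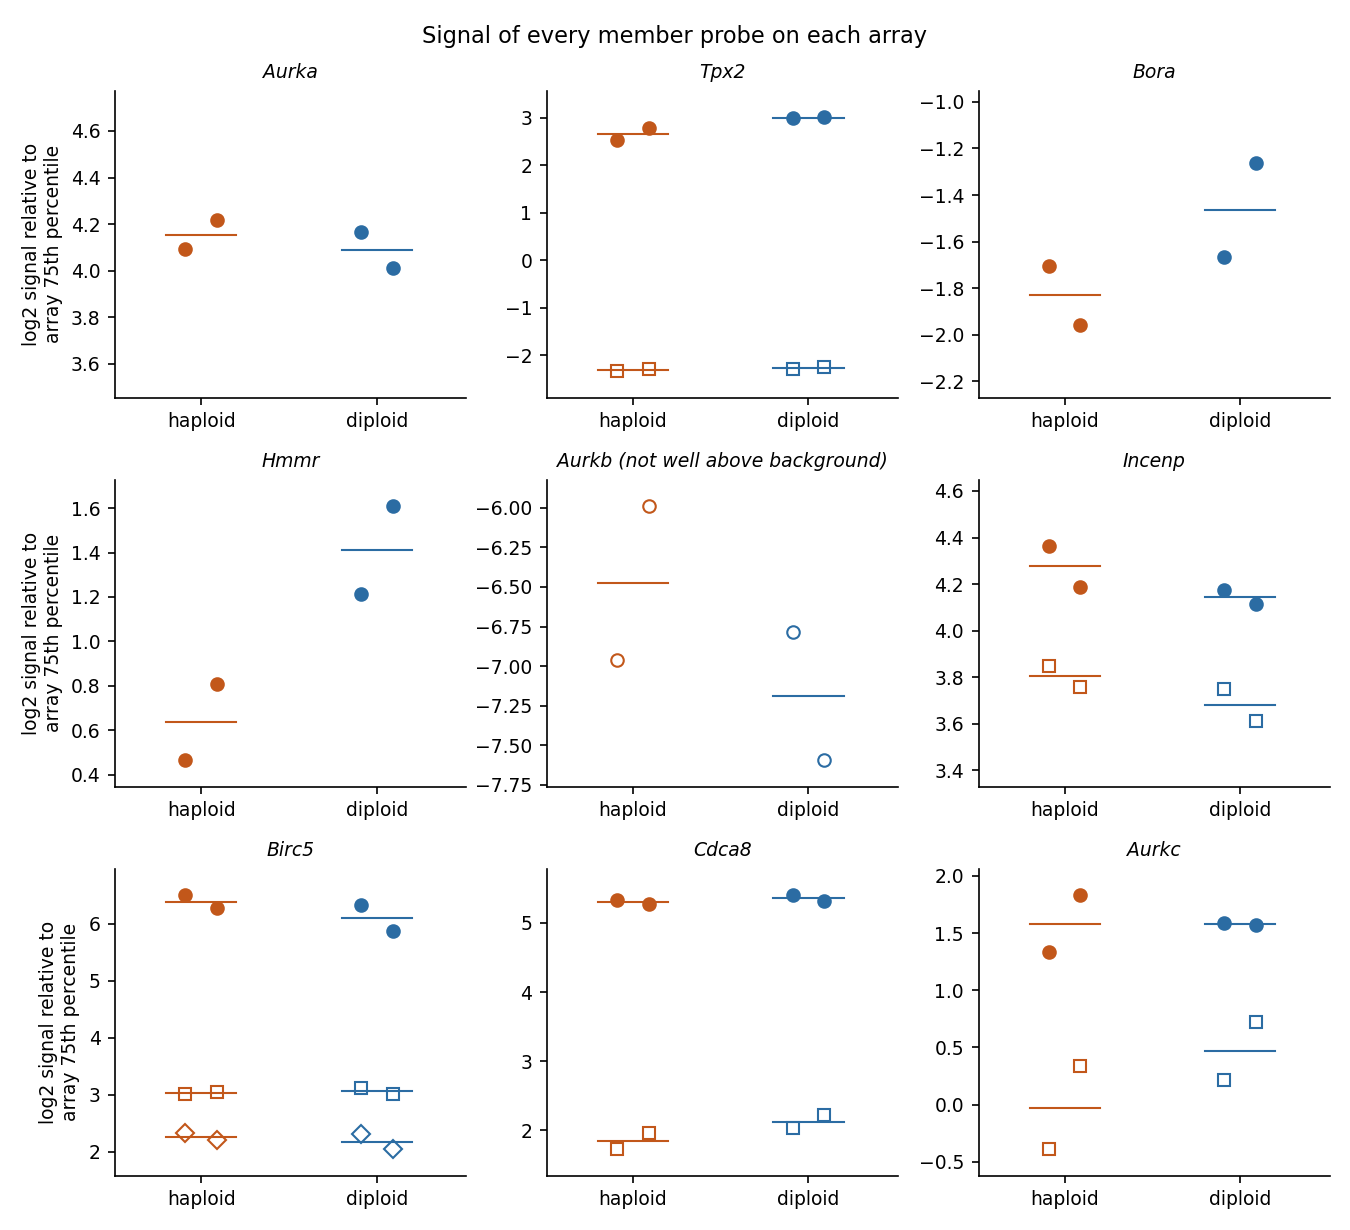
Log2 signal relative to the array's 75th percentile (vertical axis) for every probe of the 9 genes, haploid arrays in orange on the left and diploid arrays in blue on the right. Filled points are the probe that stood for the gene in the fit, open points other probes or, for Aurkb, a probe not well above background, and lines are group means of 2 arrays; axes differ between panels. By the filled points, Hmmr, Tpx2 and Bora sit lower on both haploid arrays, while Aurka, Birc5, Cdca8 and Aurkc overlap between the groups. The open Tpx2 points overlap, and the open Cdca8 points sit lower on both haploid arrays.

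Aurka (NM_011497, chromosome 2), the gene of the spindle pole kinase, stood at 4.09 and 4.22 in haploid cells, against 4.17 and 4.01 in diploid cells. The groups overlapped, with the diploid values inside or just below the haploid ones. The difference was 0.07 ± 0.17 (SE, n = 2 per group, limma adjusted p = 0.893), or 1.05-fold, with a 95% interval from 0.783-fold to 1.40-fold. Its direction turned with quantile normalization (-0.06), with the authors' value table (-0.06) and without diploid replicate 2 (-0.01).

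Tpx2 (NM_028109, chromosome 2), the gene of the Aurora A activator, stood at 2.54 and 2.80 in haploid cells, against 2.99 and 3.01 in diploid cells. Both haploid arrays lay below both diploid arrays, by a gap of 0.19 that was smaller than the 0.26 between the haploid arrays. The difference was -0.34 ± 0.18 (SE, n = 2 per group, limma adjusted p = 0.513), or 1.26-fold lower. As haploid over diploid this was 0.792-fold, with a 95% interval from 0.586-fold to 1.07-fold. A second Tpx2 probe, designed to the transcript NM_001141977, was much dimmer and gave -2.33 and -2.28 in haploid cells, against -2.28 and -2.25 in diploid cells. Its groups overlapped and its difference was -0.04 ± 0.17. The first probe's difference was -0.21 without haploid replicate 1, and its direction turned with normexp background correction on all spots (0.085). With spots of high local background left out of that correction it was -0.33.

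Bora (NM_175265, chromosome 14), whose product brings Plk1 to Aurora A before mitotic entry, stood at -1.70 and -1.96 in haploid cells, against -1.66 and -1.26 in diploid cells. The groups were apart by only 0.04, while the diploid arrays differed by 0.40. The difference was -0.37 ± 0.21 (SE, n = 2 per group, limma adjusted p = 0.530) and ran from -0.57 without diploid replicate 1 to -0.17 without diploid replicate 2.

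Hmmr (NM_013552, chromosome 11), the gene of a microtubule-binding spindle protein, stood at 0.47 and 0.81 in haploid cells, against 1.22 and 1.61 in diploid cells. As processed signal before scaling these were 727 and 969 intensity units in haploid cells, against 1431 and 2767 in diploid cells. Both haploid arrays lay below both diploid arrays, by a gap of 0.41, close to the spread within the groups (0.34 for haploid and 0.39 for diploid). The difference was -0.77 ± 0.22 (SE, n = 2 per group, limma adjusted p = 0.265), or 1.71-fold lower. As haploid over diploid this was 0.584-fold, with a 95% interval from 0.404-fold to 0.846-fold that does not allow for the number of features tested. The difference ran from -0.97 without diploid replicate 1 to -0.58 without diploid replicate 2, and was -0.45 under normexp on all spots. With a trended and robust prior variance, a setting that called 425 features, Hmmr passed the threshold at the same difference (limma adjusted p = 0.0208). The Hmmr promoter, shown above, carried the most CCAAT matches of the 5 at hand, and Cdca8, with 4 matches, differed by -0.05. Any part of the promoter in these differences was not tested.

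Because a log2 ratio of 2 probes on 1 array does not depend on a single scaling factor per array, the Aurora A partners were also set against Aurka within each array. It does depend on scalings that act by brightness, such as quantile normalization, under which Hmmr differed by -0.80 and Aurka by -0.064. The ratio shows unequal change and not which of the genes changed. Hmmr relative to Aurka was -3.63 and -3.41 on the haploid arrays, against -2.95 and -2.40 on the diploid arrays, a mean of -3.52 ± 0.15 in haploid and -2.68 ± 0.39 in diploid cells (SD, n = 2 each). Tpx2 relative to Aurka was -1.55 and -1.42 on the haploid arrays, against -1.18 and -0.995 on the diploid arrays. For both ratios the haploid arrays lay below the diploid arrays, with mean differences of -0.84 for Hmmr and -0.40 for Tpx2. All ratios used the probe that stood for each gene in the fit. The dimmer Tpx2 probe, which differed by -0.04 with overlapping groups, was not set against Aurka. The ratios were chosen after the values were seen, and how often other probe pairs lie apart was not counted. Hmmr also lay lower relative to Tpx2, at -2.07 and -1.99 on the haploid arrays, against -1.78 and -1.41 on the diploid arrays. Bora relative to Aurka overlapped between the groups, at -5.79 and -6.18 on the haploid arrays, against -5.83 and -5.27 on the diploid arrays.

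**Figure D2:**
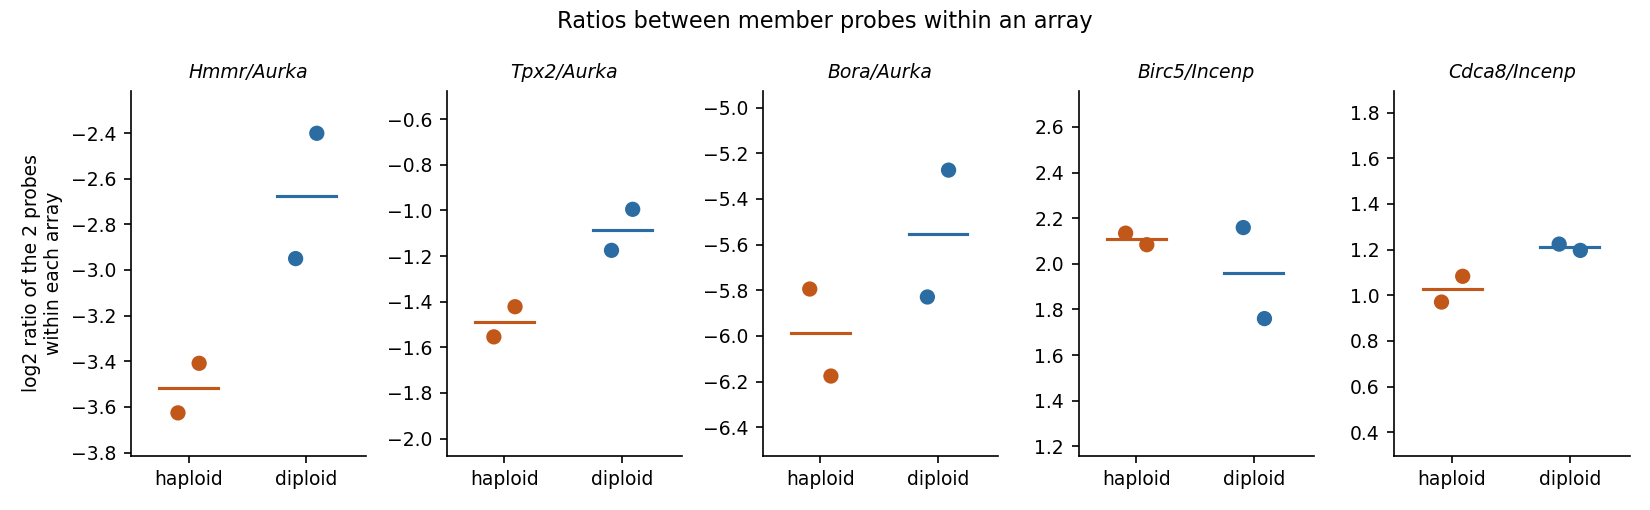
Log2 ratio of 2 member probes within each array (vertical axis, the same span in each panel), haploid arrays in orange on the left and diploid arrays in blue on the right, with lines at group means of 2 arrays. The Hmmr/Aurka, Tpx2/Aurka and Cdca8/Incenp ratios lie lower on both haploid arrays, and the Bora/Aurka and Birc5/Incenp ratios overlap. Each gene is given by the probe that stood for it in the fit, and the ratios were chosen after the values were seen.

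The passenger complex could not be followed through its kinase. The single Aurkb probe (NM_011496, chromosome 11) failed the well-above-background flag on all 4 arrays, with 4.23 and 8.70 intensity units in haploid cells, against 5.60 and 4.70 in diploid cells. The lowest signal called well above background was 20.9 and 17.8 units on the haploid arrays and 25.4 and 21.6 units on the diploid arrays. No fold is given for Aurkb, and the signal of 1 probe does not show whether its transcript was absent.

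Incenp (NM_016692, chromosome 19), the scaffold that binds and activates Aurora B, stood at 4.37 and 4.19 in haploid cells, against 4.18 and 4.11 in diploid cells. The groups were apart by 0.01, far less than the 0.18 between the haploid arrays. The difference was 0.13 ± 0.17 (SE, n = 2 per group, limma adjusted p = 0.777), and a second probe of the same transcript gave 0.12 ± 0.17, also without overlap. The first probe differed by 0.04 without haploid replicate 1 and by 0.22 without haploid replicate 2.

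Birc5 (NM_001012273, chromosome 11), the gene of survivin, which ties the complex to histone H3 at centromeres, stood at 6.50 and 6.27 in haploid cells, against 6.33 and 5.87 in diploid cells. The groups overlapped, and the diploid arrays differed by 0.46. The difference was 0.28 ± 0.22 (SE, n = 2 per group, limma adjusted p = 0.623), ranging from 0.05 without diploid replicate 2 to 0.51 without diploid replicate 1. Its 2 dimmer probes gave 0.08 ± 0.19 (same accession) and -0.04 ± 0.17 (the transcript NM_009689), both with overlapping groups.

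Cdca8 (NM_026560, chromosome 4), the gene of borealin, which joins survivin and INCENP in the complex, stood at 5.34 and 5.27 in haploid cells, against 5.40 and 5.31 in diploid cells. The groups overlapped and the difference was -0.05 ± 0.17 (SE, n = 2 per group, limma adjusted p = 0.914), with -0.10 to -0.0079 as its range with 1 array left out and 0.40 under normexp on all spots. With spots of high local background left out of normexp it was -0.086. A dimmer probe of the same transcript stood at 1.73 and 1.96 in haploid cells, against 2.03 and 2.22 in diploid cells. That probe's haploid values lay below its diploid values by a gap of 0.08, with a difference of -0.28 ± 0.19. Relative to Incenp within each array, the brighter Cdca8 probe was 0.97 and 1.08 on the haploid arrays, against 1.22 and 1.196 on the diploid arrays. This ratio differed by -0.18 without overlap, while Birc5 relative to Incenp overlapped, at 2.13 and 2.08 on the haploid arrays, against 2.16 and 1.76 on the diploid arrays. Each gene alone differed by less than its SE, Cdca8 by -0.05 ± 0.17 and Incenp by 0.13 ± 0.17. These ratios too were chosen after the values were seen, with no count of other probe pairs that lie apart.

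Aurkc (NM_001080966, chromosome 7), the germ cell member of the kinase family, was well above background on all 4 arrays with both of its probes. The brighter probe stood at 1.33 and 1.83 in haploid cells, against 1.58 and 1.57 in diploid cells. The haploid arrays lay on either side of the diploid arrays, and the difference was 0.01 ± 0.22 (SE, n = 2 per group, limma adjusted p = 0.994), with a 95% interval from 0.698-fold to 1.44-fold. The dimmer probe of the same transcript stood at -0.39 and 0.34 in haploid cells, against 0.22 and 0.72 in diploid cells, and its difference was -0.50 ± 0.30 with overlapping groups. With the mean of both probes Aurkc differed by -0.24, and leaving out haploid replicate 1 or 2 gave 0.26 or -0.24, so its direction rested on the probe and the array. Of 12 oocyte and germ cell markers, 7 passed the filter, with 3 above 0 and 4 below 0. Their summed signal was 4.92 to 5.22 times the 75th percentile on the haploid arrays and 4.65 to 5.07 times on the diploid arrays. The sum joins genes with opposite differences. Zp3 (0.59), Gdf9 (0.54) and Ooep (0.09) lay higher in haploid cells. Nlrp5 (-0.80), Dazl (-0.65), Sycp3 (-0.26) and Ddx4 (-0.17) lay lower, and none of the 7 passed the threshold. Zp1, Zp2, Bmp15, Mos and Figla did not pass the filter.

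Brightness moved with the difference over the whole array. The median difference was -0.17 in the dimmest of 10 brightness classes of features and 0.22 in the brightest. Set against the median of their own class, 6 of the 8 members lay lower. By definition, as many features of each class lie below its median as above it. Relative to its class median Hmmr stood at -0.79, Tpx2 at -0.37, Bora at -0.34 and Cdca8 at -0.27. Aurka stood at -0.02 and Aurkc at -0.01, while Birc5 and Incenp lay 0.06 and 0.04 above theirs. For Birc5, Cdca8, Aurkc and Incenp the brightest probe gave the highest difference of the gene's probes, and for Tpx2 it gave the lowest. The part of brightness in these differences was not tested.

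**Figure D3:**
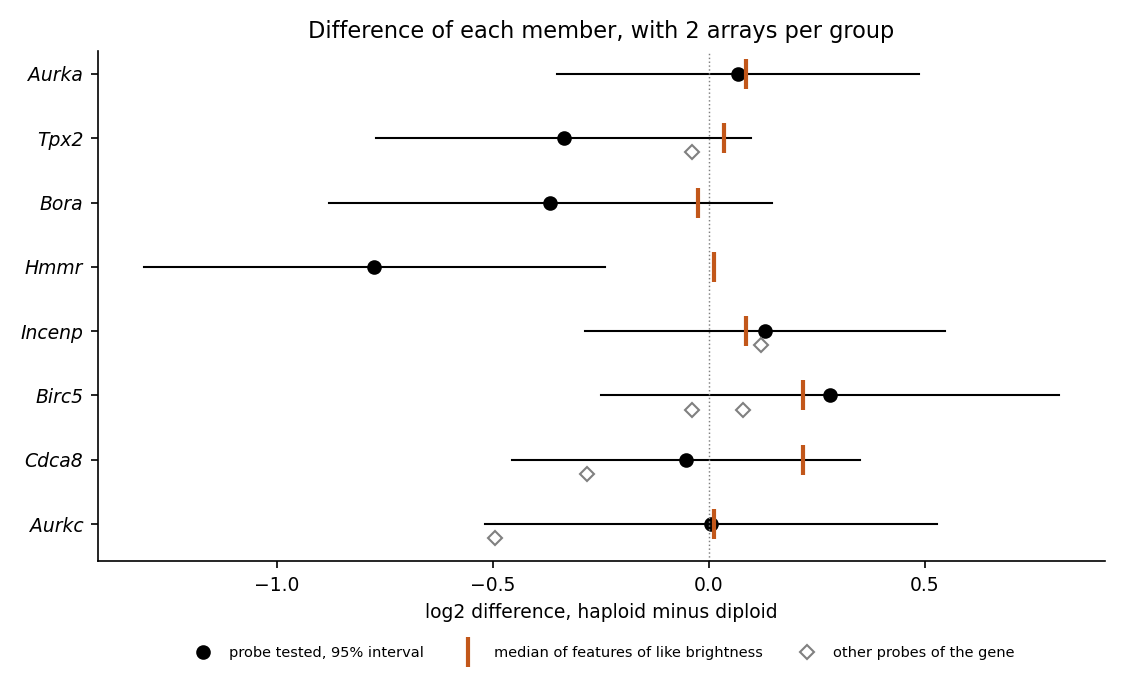
Log2 difference, haploid minus diploid (horizontal axis), of each member that passed the filter: black points with 95% intervals are the probe tested, open diamonds are other probes of the gene, and orange ticks are the median of features of like brightness. Hmmr at -0.77 is the only member whose interval excludes 0, and Tpx2 and Bora lie at -0.34 and -0.37 with intervals that include it. Over all 17962 features, 2104 had an unadjusted limma p under 0.05.

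The pathway around the members was read from 4 lists of genes, 129 in all with each counted once, of which 123 passed the filter and none passed the threshold. The lists share genes: 8 of the 25 G2 and M phase markers stood in another list. Among genes that control Aurora A or are its substrates, 15 of 32 measured lay above 0 and 17 below, with a median of -0.04. The haploid arrays lay below both diploid arrays for 9 and above both for 10, beside 20.9% and 26% of all features. The 4 genes with the smallest p lay below 0 and the next 4, Ccnb1, Mycn, Aurkaip1 and Fam83d, above it (0.37 to 0.58), each with no overlap between the groups. Kif11, the motor that pushes spindle poles apart and is phosphorylated by Aurora A, stood at -1.31 and -1.25 in haploid cells, against -0.91 and -0.66 in diploid cells, a difference of -0.50 ± 0.18 (limma adjusted p = 0.369). Ccna2, cyclin A2, which with its kinase partner acts on BORA, stood at 2.89 and 2.95 in haploid cells, against 3.24 and 3.36 in diploid cells, a difference of -0.38 ± 0.17 (limma adjusted p = 0.451) that turned to 0.00 with normexp on all spots. The Ccna2 difference was -0.43 with spots of high local background left out of normexp. Arhgef2, a microtubule-bound activator of RhoA, differed by -0.40 ± 0.18, and by -0.069 under normexp on all spots. Nin, the gene of the centrosome protein ninein, differed by -0.56 ± 0.26, with its other probe at 0.47 and values of -0.92 without diploid replicate 1 and -0.21 without diploid replicate 2.

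Among genes that recruit the passenger complex, control it or are its substrates, 10 of 35 measured lay above 0 and 25 below, with a median of -0.16, beside 0.02 over all features. The haploid arrays lay below both diploid arrays for 16 of the 35 and above both for 6, beside 20.9% and 26% of all features. Klhl13 had the smallest p of the list. It is an X-linked gene whose product joins the CUL3 ubiquitin ligase that moves Aurora B off mitotic chromosomes. It stood at 4.96 and 5.05 in haploid cells, against 4.25 and 4.17 in diploid cells, so both haploid arrays were clearly higher. Its difference was 0.79 ± 0.17 (SE, n = 2 per group, limma adjusted p = 0.174), or 1.73-fold, and it passed the threshold only with the trended and robust prior (limma adjusted p = 0.0110). Sgo2a, a shugoshin that protects centromeric cohesin and helps bring the complex to centromeres, stood at -0.55 and -0.52 in haploid cells, against -0.07 and -0.08 in diploid cells. Its difference was -0.46 ± 0.16 (limma adjusted p = 0.364). Kif23, a kinesin of the central spindle and an Aurora B substrate, stood at 0.14 and 0.41 in haploid cells, against 0.73 and 0.86 in diploid cells, a difference of -0.52 ± 0.18 (limma adjusted p = 0.361). Vim, vimentin, an intermediate filament protein phosphorylated by Aurora B in cytokinesis, stood at 3.90 and 3.74 in haploid cells, against 3.43 and 3.32 in diploid cells. Its difference was 0.45 ± 0.17 (limma adjusted p = 0.398). Under normexp on all spots Vim differed by 0.86 and Klhl13 by 1.21.

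Vim is also abundant in fibroblasts, such as those used as feeder layers for ESCs. Of 15 fibroblast markers 13 passed the filter, 10 of them above 0, with a median of 0.61 and none past the threshold. Their summed signal was 11.7 to 15.0 times the 75th percentile on the haploid arrays and 6.65 to 8.84 times on the diploid arrays, and Pdgfrb and Fap did not pass the filter. Of 10 trophectoderm markers 7 passed the filter, 5 of them above 0 and none past the threshold, while Cdx2, Elf5 and Hand1 did not pass the filter. Summed signals were 22.2 to 24.2 in haploid and 17.1 in both diploid arrays. Krt18 (1.23), Krt8 (1.15), Gata3 (1.02), Rhox6 (0.86) and Krt7 (0.40) lay higher in haploid cells, and Eomes (-0.43) and Tfap2c (-0.14) lower. The part of such cells in the members' values was not tested.

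Among genes of Ran-dependent spindle assembly, 18 of 40 measured lay above 0 and 22 below, with a median of -0.04. The haploid arrays lay below both diploid arrays for 11 of the 40 and above both for 10, beside 20.9% and 26% of all features. Kpna2, the importin alpha that holds TPX2 inactive until Ran-GTP frees it, stood at 5.81 and 5.81 in haploid cells, against 5.36 and 5.12 in diploid cells. Both haploid arrays were higher, and its 3 other probes gave differences between 0.44 and 0.62. The difference was 0.57 ± 0.18 (SE, n = 2 per group, limma adjusted p = 0.304), beside a median of 0.22 for features of like brightness. Dlgap5, the gene of the Ran-regulated spindle protein HURP, stood at -0.04 and 0.23 in haploid cells, against 0.44 and 0.77 in diploid cells. Its difference was -0.51 ± 0.20 (limma adjusted p = 0.413), with its other probe at -0.11. Haus8, a subunit of the augmin complex that branches microtubules, differed by 0.37 ± 0.18, and Kif15, a spindle kinesin that in human cells is targeted by TPX2, by -0.35 ± 0.17, each with no overlap between the groups. Kif15 differed by -0.13 under normexp that left out spots of high local background and by -0.65 under normexp on all spots. Haus8 differed by 0.77 in the second of these settings and by 0.24 with the authors' value table. With normexp on all spots the difference was 1.003 for Kpna2 and -0.30 for Dlgap5.

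Of 24 measured G2 and M phase markers 7 lay above 0 and 17 below, with a median of -0.17, and the haploid arrays lay below both diploid arrays for 12 and above both for 2, beside 20.9% and 26% of all features. Bub1b, the spindle checkpoint kinase BUBR1, stood at 0.88 and 1.26 in haploid cells, against 1.47 and 1.78 in diploid cells, a difference of -0.55 ± 0.21 (limma adjusted p = 0.402) that was -0.36 without haploid replicate 1 and -0.25 under normexp on all spots. Cenpa, the centromeric histone, stood at 3.45 and 3.64 in haploid cells, against 3.92 and 3.94 in diploid cells. Its difference was -0.38 ± 0.17 (limma adjusted p = 0.451), 0.045 under normexp on all spots and -0.41 with spots of high local background left out of normexp. Kif20b, a kinesin of cytokinesis, differed by -0.33 ± 0.17, and by -0.043 under normexp on all spots. Ccnb1, cyclin B1, stood higher in haploid cells, at 4.06 and 4.14 in haploid cells, against 3.83 and 3.63 in diploid cells, with a difference of 0.37 ± 0.17 (limma adjusted p = 0.468) and other probes at -0.19 and -0.13. Its difference was 0.019 with the mean of its probes and 0.80 under normexp on all spots. With normexp on all spots the medians of all 4 lists turned above 0. With spots of high local background left out of normexp all 4 stayed below 0.

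**Figure D4:**
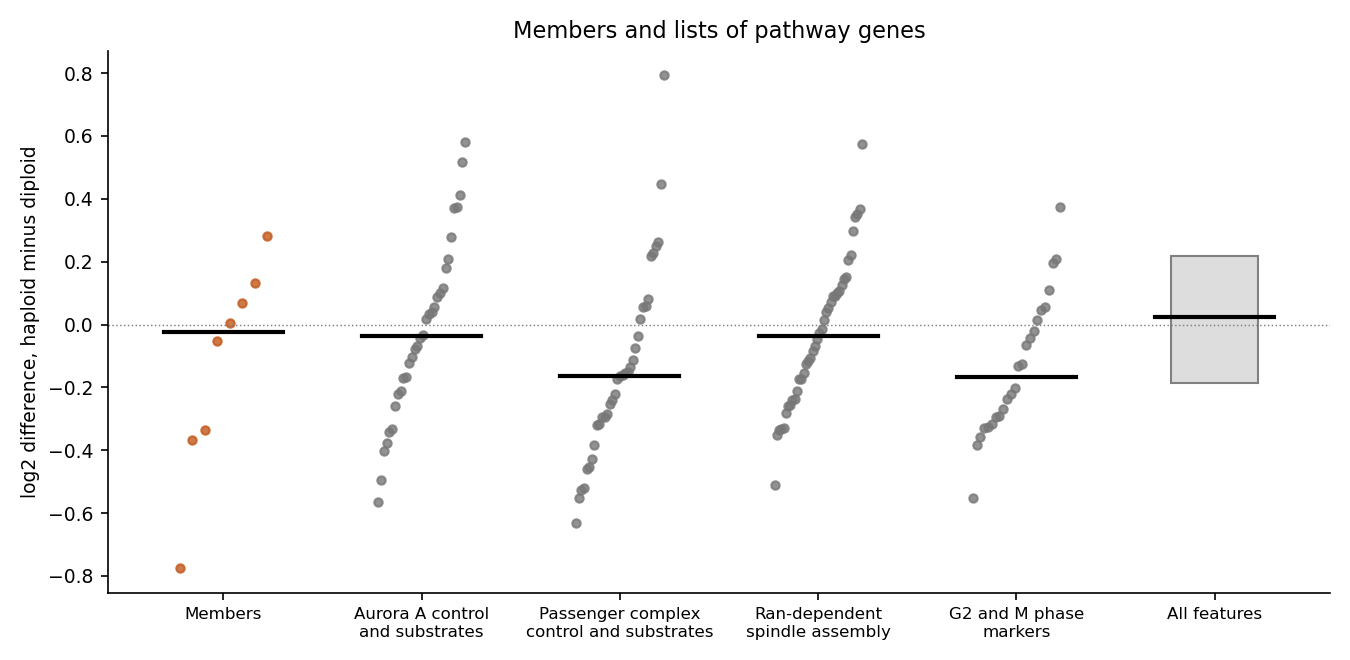
Log2 difference, haploid minus diploid (vertical axis), of the 8 measured members (orange) and of the measured genes of 4 pathway lists (grey), each sorted from low to high, with black bars at the medians; the box on the right spans the middle quartiles of all 17962 features. Medians are -0.02 for the members, -0.16 for the passenger complex list, -0.17 for the G2 and M phase markers and 0.02 for all features.

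Pattern likeness was measured among the 131 measured members and list genes as the root mean square distance between values centred on each gene's mean over the 4 arrays. Hmmr, at -0.56 and -0.22 on the haploid arrays, against 0.19 and 0.58 on the diploid arrays, was nearest to Bub1b (distance 0.12), Spdl1 (0.12) and Ttk (0.13). These 3, the genes of a checkpoint kinase, of the kinetochore protein Spindly and of the kinase MPS1, shared its order of arrays, lowest on haploid replicate 1 and highest on diploid replicate 2. The arrays' 75th percentile signal before scaling ran in the same order. It was 526 and 553 intensity units on haploid replicates 1 and 2, and 617 and 907 on diploid replicates 1 and 2. The part of array signal in this shared order was not tested. Aurka, at -0.03 and 0.10 on the haploid arrays, against 0.04 and -0.11 on the diploid arrays, was nearest to Ube2c (0.02), Prc1 (0.03) and Sgo1 (0.03), none of which moved by more than 0.12 from its mean. With 4 arrays that share 1 scaling, these distances describe the arrays and have no test.

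**Figure D5:**
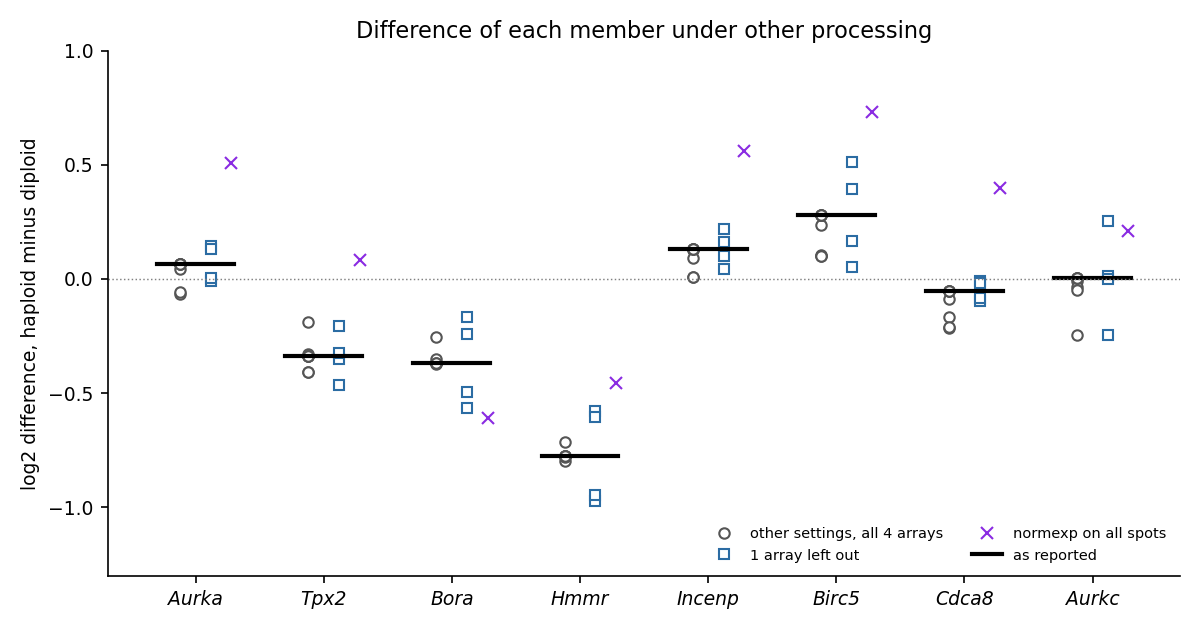
Log2 difference, haploid minus diploid (vertical axis), of each measured member: black bars as reported, grey circles other settings with all 4 arrays, blue squares with 1 array left out, and purple crosses with normexp background correction on all spots. Hmmr stays below 0 in every setting shown, from -0.97 to -0.45, as does Bora, while Birc5 and Incenp stay above it. Leaving out 1 array could not turn Hmmr, Bora or Incenp, whose groups do not overlap. Aurka and Aurkc lie on either side of 0, and Tpx2 and Cdca8 cross it only under normexp on all spots. Settings that change only the filter, the prior variance or the replicate block leave each difference as reported.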

How the data were processed

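RNA of 2 haploid and 2 diploid ESC samples was labelled with Cy3 from 0.2 ug and hybridised to 1-colour arrays, per the labels' protocols. Per the file headers, the deposited files come from Agilent Feature Extraction 11.0.1.1 and give a background-subtracted intensity per spot and flags of 0 or 1. The deposited value table holds intensity values that the authors had brought to nearly 1 distribution, with column medians of 28.3 to 28.4, in a way not given in the sources used here. All 4 arrays were on 1 slide with 1 scan time.

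From these intensities, log2 signal minus each array's 75th percentile was computed. Control spots were left out, as were 121 to 168 of 43020 spots marked as outliers per array. Repeated spots were averaged. Accessions were matched to RefSeq (GRCm38.p6), which named 66.1% of 39409 probes. No RefSeq gene coordinate is given, since the array's design names mm9, apart from the promoters, which are RefSeq's on GRCm38.p6. A probe was kept where both arrays of at least 1 group flagged it as well above background, and the brightest probe stood for a gene. Groups were compared with limma 3.58.1 (lmFit, eBayes, two-sided) in R 4.3.3, and the fit was checked on simulated data. Standard errors of other probes come from a fit over all probes past the filter. The number of arrays limits the precision, and p-values rest on the spread of samples that the series describes as independent experiments. The labels do not say that samples of 1 number share an origin. Named list genes are the 4 with the smallest p of each list; the next 4 of the Aurora A list were added after their values were seen. Nearest genes for Aurkb could not be given, since it did not pass the filter. The members and lists were chosen with earlier results of these data known, and the ratios within arrays after seeing the values. The files hold no mean spot signal, so normexp used the median signal. Alternatives were other background corrections, scalings, filters, probe rules, prior variances, a replicate block and leaving out each array.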

Additional observations from a re-analysis of the deposited data

How the results depend on the processing

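The number of features past the threshold depended on the processing: 20 as reported, 122 under normexp that left out spots of high local background (chosen after seeing the data), 82 with a filter on all 4 arrays, 425 with a trended and robust prior, 7 with quantile normalization, 4 with the authors' value table and 0 with no filter or with normexp on all spots. At an unadjusted p under 0.05 the limma fit had 2104. With 1 array left out the count ran from 0 to 293: 226 without haploid replicate 1, 293 without haploid replicate 2 and 0 without diploid replicate 1 or 2. The replicate block gave 2 and changed no call of a member; deviations of same-numbered arrays correlated at 0.05, and the labels do not pair them. No member passed in any setting but Hmmr with the trended and robust prior. Among the members, Bora, Birc5, Incenp and Hmmr kept their direction in all 13 settings, but not every setting could turn them. The other filters, the replicate block and the other prior variance left their differences unchanged, as did the mean of probes for Bora and Hmmr, which have 1 probe each. Leaving out 1 array could not turn Bora, Incenp or Hmmr, whose groups did not overlap. Aurkc turned with the mean of probes (-0.24), without haploid replicate 2 (-0.24), without diploid replicate 2 (-0.0022), under normexp less spots of high local background (-0.0067), quantile normalization (-0.037) and the value table (-0.046), and with 1 array left out ran up to 0.26. Aurka turned with quantile normalization (-0.064), the value table (-0.059) and without diploid replicate 2 (-0.011), and with 1 array left out ran up to 0.14. With normexp on all spots Cdca8 (0.40), Tpx2 (0.085), Ccna2 (0.0021) and Cenpa (0.045) turned. That setting also turned the medians of the members (0.30), Aurora A genes (0.055), passenger complex genes (0.045), Ran-dependent genes (0.17) and G2 and M phase markers (0.12). On diploid replicate 2, where local background reached 43004 units against at most 82 on the other arrays, it left an SD of log2 signal of 1.43, against 2.57 to 2.62 on the others. With 14 spots of high local background left out, the SD on diploid replicate 2 was 2.64. In the same order, medians were -0.14, -0.10, -0.24, -0.10 and -0.26 under quantile normalization and -0.14, -0.10, -0.22, -0.10 and -0.25 for the value table. The mean of probes gave -0.18 for the members and -0.059 for Ran-dependent genes, and no filter -0.20 for G2 and M phase markers. Normexp less spots of high local background gave -0.047 for the members, -0.033 for Aurora A, -0.22 for passenger complex and -0.076 for Ran-dependent genes. For G2 and M phase markers it gave -0.20. In that setting Cdca8 (-0.086), Tpx2 (-0.33), Ccna2 (-0.43) and Cenpa (-0.41) kept their direction. With 1 array left out the medians ran from -0.13 to 0.0029 (members), -0.13 to 0.0016 (Aurora A), -0.19 to -0.15 (passenger complex), -0.052 to -0.011 (Ran-dependent) and -0.22 to -0.14 (G2 and M phase). The member median turned without diploid replicate 1 (0.0029) and the Aurora A median without haploid replicate 2 (0.0016). The cause of these changes was not tested.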
